A study of Homo sapiens and Mus musculus with 12 samples.

Results

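Enzymes that modify foreign compounds were examined in the colon of 12-week-old C57BL/6J mice, in 3 Zfp280c knock-out and 3 wild-type animals, by RNA sequencing of polyadenylated RNA. The genes were chosen by name: cytochromes P450 of families Cyp1 to Cyp4, glutathione transferases of the alpha, mu, pi, theta and kappa classes, the Ugt1 and Ugt2 glucuronosyltransferases, the Sult1 and Sult2 sulfotransferases, the Ces1 and Ces2 carboxylesterases, and the single genes Nqo1, Ephx1 and Aldh1a1. Of 118 such symbols among the 17383 genes of the mouse table, the 68 with a mean of at least 1 FPKM (fragments scaled to transcript length and to the size of the library) over the 6 libraries were kept. The labels give the genotype as a knock-out and name no allele, deleted exon, sex or stretch of colon, so the 2 groups share strain and age only as far as stated. A human cell line measured in the same study was not used here.

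Foreign compounds are handled in successive steps. Cytochromes P450, carboxylesterases, epoxide hydrolase and quinone reductase first expose or create a reactive group on the molecule. Glucuronosyltransferases, sulfotransferases and glutathione transferases then attach a water-soluble group, and transporters export the product. The colon epithelium meets compounds from diet and bacteria, and many of these enzymes also act on fatty acids, retinoids, steroids and bile pigments.

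Summed FPKM per library lay between 491900 and 507206 over all genes, and read depth is unknown. Zfp280c, the targeted gene, stood at 0.09, 0.09 and 0.22 FPKM in the knock-out libraries, against 2.48, 2.25 and 3.17 in wild-type libraries (exact two-sided permutation p = 0.1, the smallest possible with 3 against 3). All 14 colon epithelium markers were present at a mean of at least 1 FPKM, while Alb, the defining hepatocyte gene, stood at 0.05 to 0.11 FPKM in the knock-out and 0.05 to 0.31 FPKM in wild-type libraries. The 7 hepatocyte markers found summed to 14.1 to 16.2 FPKM in the knock-out and 16.7 to 48.9 FPKM in wild-type libraries, nearly all of it Tat and Ttr, the 2 markers with a mean of at least 1 FPKM. Both were highest in wild-type replicates 1 and 3, Ttr at 10.1 and 23.6 FPKM there. The 8 goblet cell markers summed to 4032 to 7386 FPKM in the knock-out and 8886 to 11387 FPKM in wild-type libraries, but the markers did not move as one. Zg16, Tff3 and Clca1, 3 of the 8, were lower in every knock-out library, as were 9.79% of all genes with a mean of at least 1 FPKM. Muc2 and Spdef were lowest in wild-type replicates 1 and 3, and the groups overlapped in 5 of the 8. The part of these cell types in the results below was not tested. Wild-type replicates 1 and 3 stood apart from the other 4 libraries. The proximal colon genes Hoxb6, Hoxb7 and Hoxb8 together gave 38.0, 19.6 and 33.2 FPKM in the knock-out libraries, against 1.05, 33.4 and 0.58 in wild-type libraries. The distal colon gene Hoxb13 gave 2.23, 12.9 and 18.9 FPKM in the knock-out libraries, against 336, 14.7 and 507 in wild-type libraries. Genotype therefore ran together with the HOX genes in every library except wild-type replicate 2, and calls that appear when it is left out are given beside the results.

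The 68 genes made up 1.36%, 1.42% and 1.19% of all FPKM in the knock-out libraries and 1.07%, 1.16% and 0.98% in wild-type libraries. Their levels covered a wide range: 17 averaged at least 100 FPKM, and 51 at least 10 FPKM. A single cytochrome, Cyp2c55, supplied 18.0% of the whole sum. Next came the carboxylesterase Ces2c with a mean of 549 FPKM and the pi-class glutathione transferase Gstp1 with 486 FPKM. The minimum of 1 FPKM was reached by 63 genes in both genotypes, by Cyp1a1, Cyp2e1, Cyp2c66 and Cyp3a44 in the knock-out mean only, and by Cyp2f2 in the wild-type mean only. Those 5 could not have been kept without being high in 1 group. The values nearest the minimum were Cyp2w1 at 1.34 and Cyp2c66 at 1.37 FPKM inside it, and Cyp2j9 at 0.94 and Cyp4f17 at 0.803 FPKM outside it. Of the 50 symbols left out, 45 did not reach 1 FPKM in any library.

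**Figure D1:**
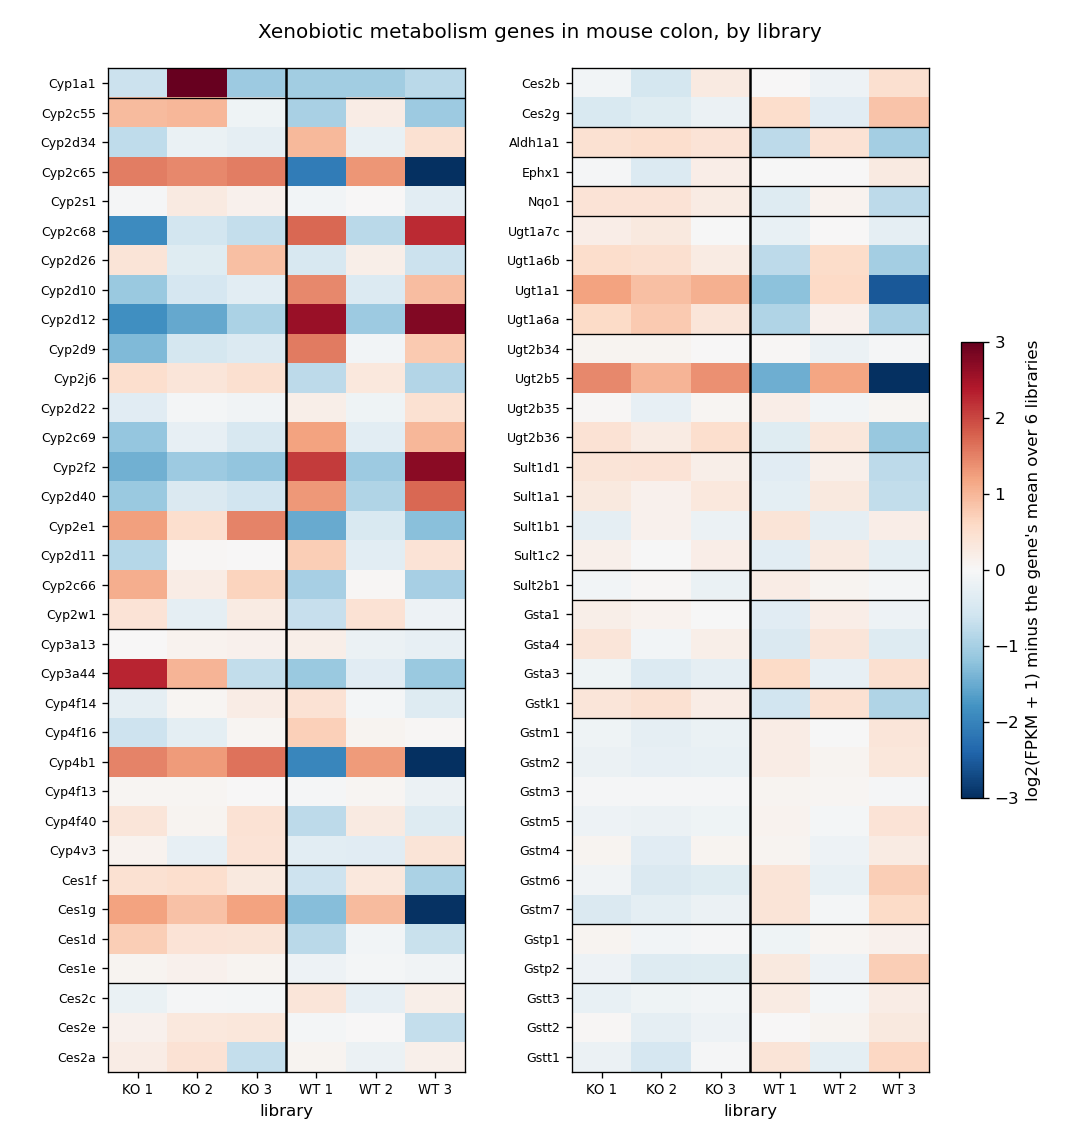
Each row is 1 of the 68 genes and each column a library (KO, Zfp280c knock-out; WT, wild-type); colour gives log2(FPKM + 1) minus the gene's mean over 6 libraries, saturating at 3 on either side, and lines part the families. Wild-type replicates 1 and 3 carry most of the strong colours, low in Cyp2c65, Cyp4b1, Ces1g, Ugt1a1 and Ugt2b5 and high in Cyp2c68, Cyp2d12 and Cyp2f2, while Cyp1a1 is high in knock-out replicate 2 alone.

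Groups were compared with limma on log2(FPKM + 1) over all 11366 genes with a mean of at least 1 FPKM, and p-values were adjusted over all of them. No gene passed an adjusted p of 0.05 (0% of all genes in each direction), so 0 of the 68 enzymes did, and their adjusted p was nowhere below 0.396. At an unadjusted p under 0.05 stood 17 enzymes that were higher (6.02% of all genes) and 15 that were lower in knock-out colon (6.48% of all genes), which is 25% and 22.1% of the 68. In 12 enzymes all 3 knock-out libraries lay above all 3 wild-type ones (17.6%, against 7.13% of all genes), and in 9 they lay below (13.2%, against 9.79%). The directions were mixed, with 36 log2 fold changes above 0 (44.6% of all genes) and 32 below (55.4% of all genes). A log2 fold change of 1 or more was reached by 12 enzymes on the higher side (1.87% of all genes) and by 7 on the lower (1.26% of all genes). Among the 63 enzymes that reached the minimum in both groups these were 8 and 6, with 15 and 14 at an unadjusted p under 0.05 and 10 and 8 without overlap. Over all 68 enzymes, including those that reached the minimum in 1 group only, the median log2 fold change was 0.11, against -0.02 for all genes tested. Their median size without regard to sign was 0.58, against 0.13. With the HOX position score described below, the median was 0.002 for the enzymes, against -0.041 for all genes tested. The median size without regard to sign was then 0.154, against 0.105.

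Without wild-type replicate 2 the picture of calls was different. In that comparison of the knock-outs with wild-type replicates 1 and 3, 23 of the 68 enzymes passed as higher (33.8%, against 9.21% of all 11344 genes) and 19 as lower (27.9%, against 7.19%). Among the 63 enzymes that reached the minimum in both groups these were 21 and 18. No gene passed without any other single library. Since wild-type replicates 1 and 3 are also the libraries with little Hoxb6 and much Hoxb13, genotype and position along the colon cannot be told apart in that fit. Wild-type replicates 1 and 3 were the 2 lowest libraries in 30 of the 68 enzymes (44.1%, against 22.0% of all genes tested) and the 2 highest in 22 (32.4%, against 21.7%).

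Summed by family, the enzymes that were higher in knock-out colon in all 3 libraries were the Ces1, Ugt1, Ugt2 and Sult1 families and Nqo1, and those lower in all 3 were the mu and theta glutathione transferases. The Ugt1 sum was 402 ± 30.3 FPKM in the knock-out and 238 ± 101 FPKM in wild-type colon (SD, n = 3 each), and the Ces1 sum was 148 ± 8.93 and 75.8 ± 43.6 FPKM. In both, wild-type replicate 2 lay close to the knock-outs, with 354 FPKM for Ugt1 and 126 FPKM for Ces1. The Ugt2 sum was even among wild-type libraries, at 279, 266 and 265 FPKM in the knock-out and 239, 233 and 223 FPKM in wild-type colon, and was higher in each knock-out library than in each wild-type one. Taken singly, 0 of its 4 genes were without overlap. Among wild-type libraries, replicate 2 was the lowest for Ugt2b34 (194 FPKM) and the highest for Ugt2b5 (30.1 FPKM). The mu class summed to 235, 216 and 226 FPKM in the knock-out and 296, 256 and 326 FPKM in wild-type colon. The theta class summed to 71.1, 65.5 and 73.7 FPKM in the knock-out and 92.2, 74.3 and 101 FPKM in wild-type colon. Knock-out replicate 3 and wild-type replicate 2 lay close together there. The Ces2 sums of 1087 ± 91.1 and 1086 ± 140 FPKM differed by less than the spread between libraries. Sums over family members are given without a test.

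**Figure D2:**
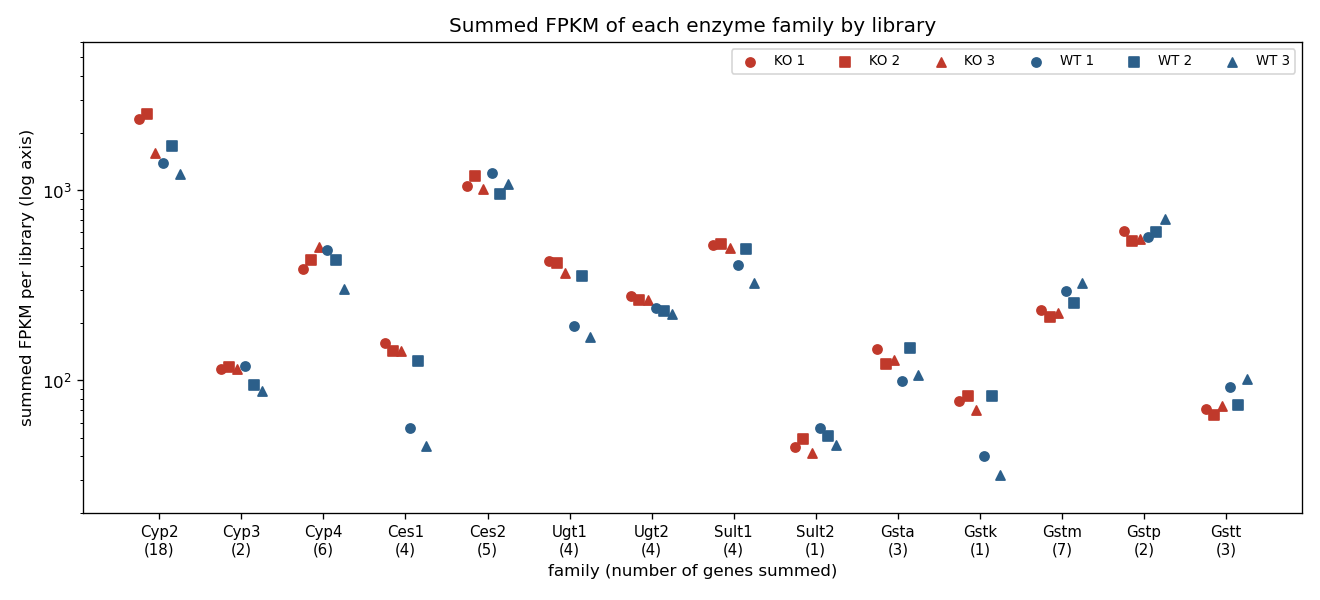
Points give the FPKM of all genes of a family added up in each library, on a log axis, with the number of genes in brackets (red, knock-out; blue, wild-type; circle, square and triangle, replicates 1, 2 and 3). Knock-out points lie above all wild-type points in Ces1, Ugt1, Ugt2 and Sult1 and below them in Gstm and Gstt.

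The Cyp2 family, the largest group of drug-oxidising cytochromes, was represented by 18 genes and split into opposite patterns. Cyp2c55 (Entrez gene 72082), which oxidises arachidonic acid in the mouse gut, stood at 1788, 1853 and 848 FPKM in the knock-out libraries, against 473, 1079 and 437 in wild-type libraries. Knock-out replicate 3 lay below wild-type replicate 2, so the groups overlapped. The log2 fold change was 1.22 ± 0.44 (SE; adjusted p = 0.396, limma) and 1.63 without wild-type replicate 2 (adjusted p = 0.0219). Cyp2c65 (72303), its relative with a similar substrate range, stood at 276, 259 and 276 FPKM in the knock-out and 21.3, 239 and 6.35 FPKM in wild-type libraries. All knock-outs lay above all wild-types here, but wild-type replicate 2 came within 20.3 FPKM of the lowest knock-out while the other wild-types were lower by an order of magnitude. Its log2 fold change was 2.99 ± 1.16, and 4.40 without wild-type replicate 2 (adjusted p = 0.0024, limma). Cyp2c66 followed the same order at a low level, with 3.37, 1.43 and 2.26 FPKM in the knock-out and 0.04, 1.11 and 0.03 FPKM in wild-type libraries (adjusted p = 0.0085 without wild-type replicate 2, limma).

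Of the 5 Cyp2c genes, 2 had negative log2 fold changes. Cyp2c69 stood at 2.18, 4.94 and 4.04 FPKM in the knock-out and 15.2, 4.72 and 13.2 FPKM in wild-type libraries, and Cyp2c68, picked with its values in view, at 6.90, 18.9 and 16.7 FPKM against 96.1, 15.8 and 137 FPKM. Cyp2c68 made up 0.332% to 1.46% of all Cyp2c FPKM in the knock-out libraries, and 15.9%, 1.176% and 23.1% in wild-type libraries. Wild-type replicates 1 and 3 were thus the high libraries for Cyp2c68 and Cyp2c69 and the low ones for Cyp2c55, Cyp2c65 and Cyp2c66. With wild-type replicate 2 left out, Cyp2c69 and Cyp2c68 passed as lower (-1.73 and -3.04, adjusted p = 0.0085 and 0.00565, limma). These genes are close paralogs, and the way shared reads were assigned is not given in the sources used here.

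The Cyp2d genes, relatives of the human drug-oxidising enzyme CYP2D6, were mostly of the second kind. Cyp2d34, the most abundant of 8, stood at 113, 167 and 159 FPKM in the knock-out and 374, 163 and 262 FPKM in wild-type libraries. Cyp2d12 showed the widest gap, at 3.49, 4.52 and 7.25 FPKM in the knock-out and 95.7, 6.55 and 109 FPKM in wild-type libraries (log2 fold change -2.87 ± 1.01, adjusted p = 0.396, limma; -4.13 without wild-type replicate 2, adjusted p = 0.00123). In both genes wild-type replicate 2 lay inside the knock-out range. In Cyp2d9, at 7.71, 14.0 and 15.5 FPKM in the knock-out and 62.6, 19.7 and 36.4 FPKM in wild-type libraries, the groups did not overlap. Cyp2d10 averaged 23.3 ± 6.44 FPKM in the knock-out and 65.1 ± 36.4 FPKM in wild-type colon, with overlapping groups. Cyp2d26, picked with its values in view, was the single Cyp2d gene with a positive log2 fold change, 0.63 ± 0.35. Cyp2d34, Cyp2d9 and Cyp2d10 passed as lower without wild-type replicate 2 (-1.11, -1.92 and -1.83, adjusted p = 0.0181, 0.0122 and 0.00726, limma). All Cyp2d genes together summed to 211, 265 and 312 FPKM in the knock-out and 695, 283 and 544 FPKM in wild-type libraries.

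Cyp2f2, known in mouse as an airway cytochrome and picked with its values in view, stood at 0.30, 0.66 and 0.56 FPKM in the knock-out and 14.2, 0.68 and 22.2 FPKM in wild-type libraries. Wild-type replicate 2 exceeded the highest knock-out by 0.02 FPKM only, and without it the gene passed as lower (-3.65, adjusted p = 0.00122, limma). Cyp2j6, of a subfamily that acts on polyunsaturated fatty acids, stood at 30.8, 27.8 and 30.1 FPKM in the knock-out and 12.0, 26.8 and 11.2 FPKM in wild-type libraries. The log2 fold change of Cyp2j6 was 0.90 ± 0.31, and 1.28 without wild-type replicate 2 (adjusted p = 0.00137, limma).

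Cyp2e1 (13106), which oxidises ethanol and other small solvents, had the lowest p of the 68 genes. It stood at 7.55, 4.21 and 9.21 FPKM in the knock-out libraries, against 0.28, 1.64 and 0.54 in wild-type libraries. The groups did not overlap and wild-type replicate 2 was the highest wild-type. The log2 fold change was 2.15 ± 0.35 (adjusted p = 0.396, limma; 2.45 without wild-type replicate 2, adjusted p = 0.00425). The gene had been singled out with earlier results of these data known, so its rank is no independent evidence.

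Several adipocyte markers ran in the same order of libraries as Cyp2e1. The 12 markers summed to 110 to 209 FPKM in the knock-out and 68.5 to 103 FPKM in wild-type libraries, and 8 of the 12 had a mean of at least 1 FPKM. Adiponectin, Adipoq, stood at 6.02, 2.35 and 8.90 FPKM in the knock-out and 0.18, 1.21 and 0.13 FPKM in wild-type libraries, and adipsin, Cfd, at 40.7, 13.8 and 47.2 against 2.28, 7.55 and 1.37 FPKM. Knock-out replicate 3 was highest, then knock-out replicates 1 and 2 and wild-type replicate 2, in Cyp2e1, in both of these markers and in 6 of the 12 in all. All knock-outs lay above all wild-types in 9 of the 12, against 7.13% of all genes tested. Pck1 ran differently, at 55.7, 39.8 and 48.7 FPKM in the knock-out and 54.3, 54.7 and 56.2 FPKM in wild-type libraries, and Adig, at 0.34 FPKM in knock-out replicate 3, equalled wild-type replicate 3. In Plin1, knock-out replicate 2 at 0.21 FPKM lay below wild-type replicate 2 at 0.26 FPKM. Leptin, Lep, was listed at 0 in wild-type replicates 1 and 3 and at 1.04 FPKM or less elsewhere. Adipocytes are known to express Cyp2e1 in mice, and their part in the difference was not tested. In bulk tissue, fewer cells of a type and less RNA per cell cannot be told apart.

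**Figure D3:**
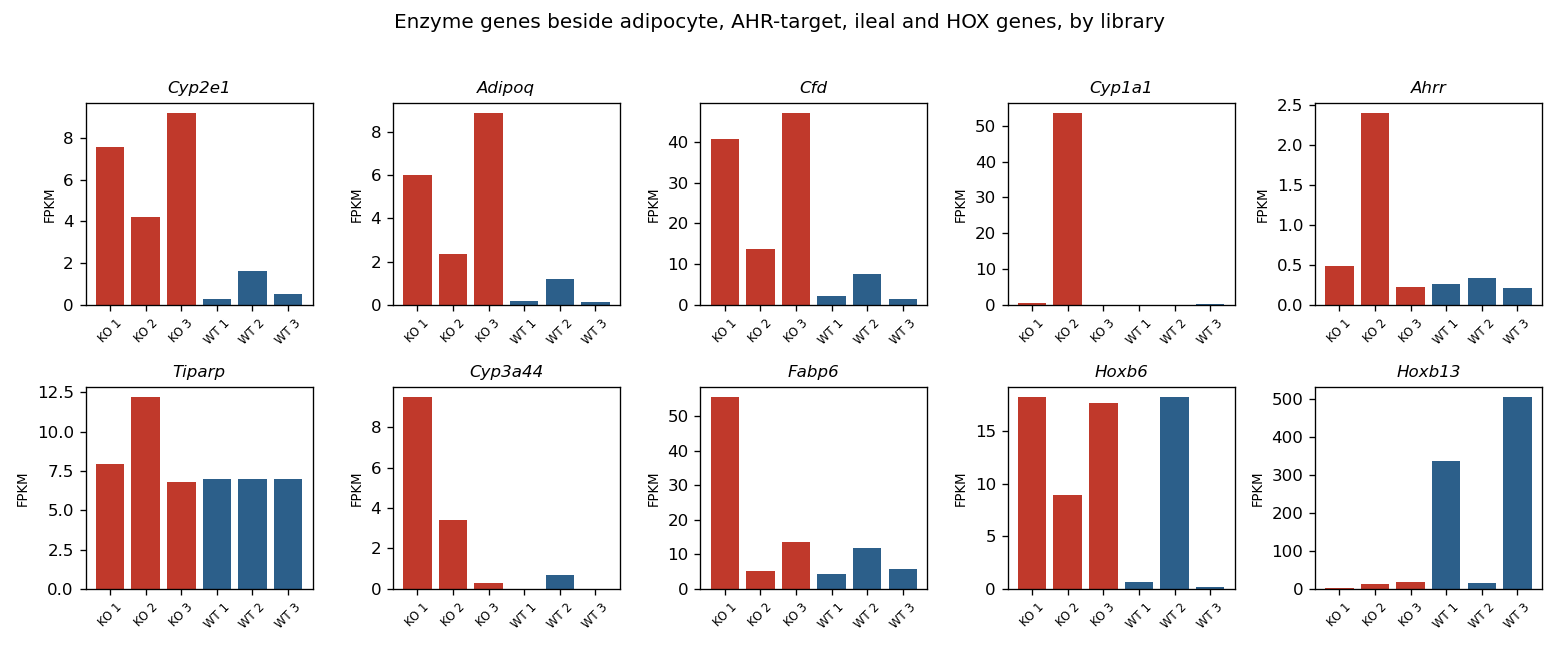
Bars give FPKM in each library (red, knock-out; blue, wild-type) for 3 cytochromes and for genes whose values are set beside them: Adipoq and Cfd of adipocytes, Ahrr and Tiparp, which the aryl hydrocarbon receptor induces, Fabp6 of the ileum, and Hoxb6 and Hoxb13 of proximal and distal colon. Cyp2e1, Adipoq and Cfd are highest in knock-out replicate 3, then in knock-out replicates 1 and 2 and wild-type replicate 2. That order holds in 6 of the 12 adipocyte markers. Cyp1a1 and Ahrr are high in knock-out replicate 2, and Cyp3a44 and Fabp6 are highest in knock-out replicate 1.

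Cyp1a1 (13076), which oxidises polycyclic aromatic hydrocarbons and is induced by the aryl hydrocarbon receptor, was a matter of 1 library. It stood at 0.39, 53.7 and 0.02 FPKM in the knock-out and 0.06, 0.06 and 0.24 FPKM in wild-type libraries. Its log2 fold change of 1.93 ± 1.45 (adjusted p = 0.562, limma) rests on knock-out replicate 2, without which the gene does not reach the minimum mean. The genes Ahrr, Tiparp and Ahr were picked with their values in view. Ahrr, the repressor of the receptor and itself a target, was also highest in that library, at 0.49, 2.40 and 0.22 FPKM in the knock-out and 0.26, 0.34 and 0.21 FPKM in wild-type colon. Tiparp, another target, stood at 7.92, 12.2 and 6.82 FPKM in the knock-out and 7.01, 7.01 and 6.99 FPKM in wild-type colon. The receptor gene Ahr itself varied little, at 3.07, 2.94 and 3.12 against 3.48, 3.25 and 3.34 FPKM. Cyp1b1, picked with its values in view, did not exceed 0.07 FPKM in any library. Nqo1, which the receptor can also induce, stood at 38.0 FPKM in the knock-out replicate 2 and at 37.7 FPKM in the knock-out replicate 1.

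Of the Cyp3 family, which metabolises many drugs, Cyp3a13 was the main form. It averaged 111 ± 4.99 FPKM in the knock-out and 100 ± 16.0 FPKM in wild-type colon (SD, n = 3 each), a difference smaller than the wild-type spread. Cyp3a44 stood at 9.51, 3.40 and 0.30 FPKM in the knock-out libraries, against 0.71 in wild-type replicate 2 and listings at 0 in wild-type replicates 1 and 3. Wild-type replicate 2 lay above knock-out replicate 3, so the groups overlapped. Knock-out replicate 1, the highest for Cyp3a44, was also highest for Fabp6, the ileal bile acid-binding protein gene, at 55.6 FPKM against 5.03 to 13.7 in the other knock-outs and 4.38 to 11.9 in wild-types. The 10 small intestine markers, 7 of them at a mean of at least 1 FPKM, summed to 1087 to 1374 FPKM in the knock-out colon and 148 to 1185 FPKM in wild-type colon. Only Fabp6 and Apoa1 of the 10 were highest in knock-out replicate 1, the sum was highest in knock-out replicate 2, and their part in this result was not tested. Lct, the lactase gene of the small intestine, did not exceed 0.02 FPKM anywhere.

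Among the 6 Cyp4 genes, which hydroxylate fatty acids and eicosanoids, Cyp4b1 stood out. It stood at 75.4, 65.4 and 84.3 FPKM in the knock-out and 6.03, 65.1 and 1.09 FPKM in wild-type libraries. The groups did not overlap, by a margin of 0.26 FPKM between knock-out replicate 2 and wild-type replicate 2. Its log2 fold change was 2.93 ± 1.14, and 4.30 without wild-type replicate 2 (adjusted p = 0.00343, limma). The most abundant form was Cyp4f14, which inactivates leukotriene B4 in mice, with 191, 238 and 267 FPKM in the knock-out and 312, 218 and 175 FPKM in wild-type libraries. Its log2 fold change was 0.01 ± 0.23, and knock-out and wild-type ranges lay across each other. Cyp4f16 averaged 56.7 ± 13.6 FPKM in the knock-out and 84.8 ± 24.1 FPKM in wild-type colon, with overlapping groups. Cyp4a10, a known target of the fatty acid receptor PPAR-alpha in mouse liver and picked with its values in view, did not exceed 0.18 FPKM. The receptor gene Ppara, picked in the same way, averaged 13.4 FPKM in the knock-out and 5.99 FPKM in wild-type colon, without overlap. Wild-type replicate 2, at 10.46 FPKM, lay close to knock-out replicate 2, at 10.91 FPKM. The log2 fold change of Ppara was 1.16 ± 0.36 (adjusted p = 0.396, limma), and 1.59 without wild-type replicate 2 (adjusted p = 0.00292). The part of PPAR-alpha in the Cyp4 values was not tested.

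**Figure D4:**
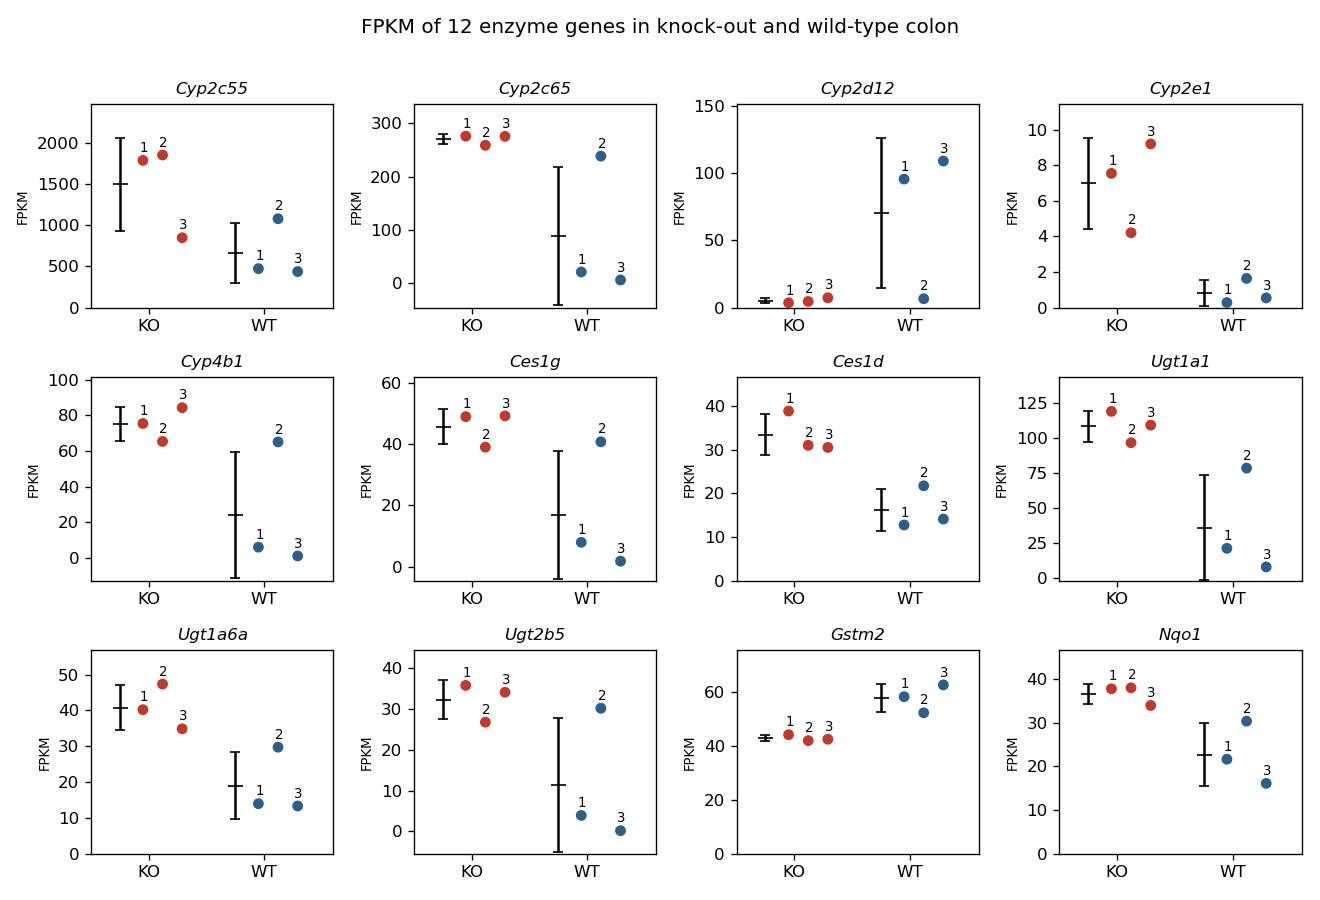
Points give FPKM in each knock-out (red) and wild-type (blue) library, numbered by replicate, for 12 enzyme genes; black bars show mean and SD of 3 libraries. In Cyp2c65, Cyp4b1, Ces1g, Ugt1a1 and Ugt2b5 wild-type replicate 2 lies with or near the knock-outs, in Cyp2d12 it lies among their low values, and in Gstm2 all 3 wild-type points lie above all knock-out points.

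The carboxylesterases hydrolyse ester drugs and also lipid esters. All 4 Ces1 genes had positive log2 fold changes. Ces1d (104158), a triacylglycerol hydrolase of liver and fat, stood at 38.8, 31.0 and 30.5 FPKM in the knock-out and 12.7, 21.7 and 14.1 FPKM in wild-type libraries, with no overlap. Its log2 fold change was 1.03 ± 0.20 (adjusted p = 0.396, limma; 1.25 without wild-type replicate 2, adjusted p = 0.0031). Ces1g stood at 49.0, 39.0 and 49.2 FPKM in the knock-out and 7.90, 40.8 and 1.75 FPKM in wild-type libraries, so that wild-type replicate 2 lay above knock-out replicate 2. Without wild-type replicate 2, Ces1g passed as higher (3.23, adjusted p = 0.00684, limma), as did Ces1f (1.202, adjusted p = 0.00327). Ces1f averaged 60.7 ± 4.78 FPKM in the knock-out and 36.1 ± 17.8 FPKM in wild-type colon, with overlapping groups. Knock-out replicate 3 was the lowest knock-out for Ces1d but the highest for Adipoq and Cfd, and the part of adipocytes was not tested.

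The Ces2 genes were far more abundant and mixed in direction. Ces2c stood at 472, 527 and 521 FPKM in the knock-out and 701, 458 and 614 FPKM in wild-type libraries, with overlapping groups. Ces2e gave the opposite direction at 280, 322 and 326 FPKM against 248, 260 and 156 FPKM, with no overlap (log2 fold change 0.51 ± 0.20). Ces2a varied most within knock-outs, at 285, 325 and 147 FPKM, against 256, 216 and 271 FPKM in wild-types. The sign of its log2 fold change turned when knock-out replicate 3 was left out (0.30, against -0.05 with all libraries).

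Of the single enzymes, Nqo1, which reduces quinones and is a classical target of the oxidant sensor NRF2, was higher in every knock-out library. It stood at 37.7, 38.0 and 33.9 FPKM in the knock-out and 21.6, 30.3 and 16.1 FPKM in wild-type colon (log2 fold change 0.71 ± 0.21, adjusted p = 0.396, limma; 0.93 without wild-type replicate 2, adjusted p = 0.00793). Aldh1a1, which makes retinoic acid from retinaldehyde, stood at 261, 268 and 250 FPKM in the knock-out and 110, 255 and 93.1 FPKM in wild-type colon. Wild-type replicate 2 lay inside the narrow knock-out range, and without it Aldh1a1 passed as higher (1.35, adjusted p = 0.00137, limma). Ephx1, the microsomal epoxide hydrolase, showed overlapping groups at 10.2 ± 2.31 FPKM in the knock-out and 11.5 ± 1.37 FPKM in wild-type colon.

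Glucuronosyltransferases of the Ugt1 family attach glucuronic acid to bilirubin, phenols and many drugs, and all 4 genes had positive log2 fold changes. Ugt1a1 (394436), the bilirubin enzyme, stood at 119, 96.8 and 109 FPKM in the knock-out libraries, against 21.2, 78.7 and 7.93 in wild-type libraries. The groups did not overlap and wild-type replicate 2 was nearest the knock-outs (log2 fold change 2.12 ± 0.72, adjusted p = 0.396, limma; 2.95 without wild-type replicate 2, adjusted p = 0.00437). Ugt1a6a (94284), which acts on small planar phenols, stood at 40.2, 47.4 and 34.9 FPKM in the knock-out and 13.9, 29.7 and 13.3 FPKM in wild-type libraries, again without overlap (1.15 ± 0.30; 1.51 without wild-type replicate 2, adjusted p = 0.00213). Its near copy Ugt1a6b did overlap, at 110, 106 and 89.7 FPKM against 43.5, 112 and 36.5 FPKM. Ugt1a7c, the most abundant form, also overlapped and averaged 151 ± 16.3 FPKM in the knock-out and 119 ± 12.6 FPKM in wild-type colon. Both passed as higher without wild-type replicate 2, Ugt1a6b at 1.32 (adjusted p = 0.00233, limma) and Ugt1a7c at 0.42 (adjusted p = 0.0451). Genes of this family are known to share all exons but the first, so the division of reads among them depends on counting rules that are not given in the sources used here.

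In the Ugt2 family the most abundant form was steady and the next most abundant was not. Ugt2b34 stood at 233, 231 and 220 FPKM in the knock-out and 225, 194 and 215 FPKM in wild-type libraries, and the groups overlapped. Ugt2b5 stood at 35.7, 26.7 and 34.04 FPKM in the knock-out and 3.90, 30.1 and 0.17 FPKM in wild-type libraries. Wild-type replicate 2 was above knock-out replicate 2, while wild-type replicate 3 was almost without this transcript. Its log2 fold change was 2.55 ± 1.08, and 3.78 without wild-type replicate 2 (adjusted p = 0.00763, limma). Ugt2b35 averaged 7.30 ± 0.97 FPKM in the knock-out and 7.89 ± 0.87 FPKM in wild-type colon.

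Sulfotransferases transfer sulfate from the cofactor PAPS. Sult1d1, which acts on catecholamines in mice, stood at 208, 212 and 180 FPKM in the knock-out and 126, 179 and 92.4 FPKM in wild-type libraries, without overlap (log2 fold change 0.64 ± 0.23; 0.88 without wild-type replicate 2, adjusted p = 0.0116, limma). Sult1a1, the phenol enzyme, averaged 186 ± 12.97 FPKM in the knock-out and 137 ± 50.7 FPKM in wild-type colon, with wild-type replicate 2 at 192 FPKM among the knock-outs (0.78 without it, adjusted p = 0.0158, limma). Sult1b1, which can sulfate thyroid hormones, had the opposite sign at 94.3 ± 14.3 FPKM in the knock-out and 110 ± 25.1 FPKM in wild-type colon. Sult2b1, the cholesterol sulfotransferase, showed overlapping groups at 45.2 ± 3.87 and 50.9 ± 5.16 FPKM.

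Glutathione transferases of the mu class had 7 of 7 log2 fold changes below 0, also under equal sums, median centring and quantile normalization, and 6 of 7 below 0 without knock-out replicate 2 or with the HOX position score described below. Gstm2 (14863) stood at 44.2, 42.0 and 42.5 FPKM in the knock-out libraries, against 58.4, 52.4 and 62.8 in wild-type libraries. The groups did not overlap, and wild-type replicate 2 lay nearer to the mean of the other wild-types than to the knock-out mean. The log2 fold change of Gstm2 was -0.42 ± 0.09 (adjusted p = 0.396, limma), and -0.49 without wild-type replicate 2 (adjusted p = 0.0108). Gstm1, the most abundant mu form, also had no overlap, at 118, 106 and 112 FPKM in the knock-out and 151, 128 and 166 FPKM in wild-type libraries, with wild-type replicate 2 nearer the knock-outs. Gstm7 averaged 3.98 ± 0.42 FPKM in the knock-out and 6.61 ± 1.61 FPKM in wild-type colon, again without overlap. Gstm3 was lower in each knock-out as well, but only by 0.08 on the log2 scale, at 27.5 ± 0.0611 FPKM against 29.2 ± 1.28 FPKM. In all, 5 of the 7 mu genes lay lower without overlap (9.79% of all genes), the fifth being Gstm5, picked with its values in view. Gstm1 (-0.50, adjusted p = 0.014) and Gstm7 (-0.77, adjusted p = 0.0108) passed as lower without wild-type replicate 2 in limma. The mu genes are near copies of each other, so their values may share reads.

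The other glutathione transferase classes differed. Gstp1, the most abundant of the glutathione transferases in the 5 classes chosen, was even across libraries at 481 ± 27.7 FPKM in the knock-out and 491 ± 45.6 FPKM in wild-type colon. Its near copy Gstp2 was not, at 94.8, 80.7 and 81.9 FPKM in the knock-out and 130, 94.8 and 178 FPKM in wild-type libraries. Knock-out replicate 1 and wild-type replicate 2 were 0.04 FPKM apart there. All 3 theta genes had negative log2 fold changes, with Gstt3 at 34.1 ± 1.84 against 41.7 ± 5.16 FPKM, Gstt2 at 19.5 ± 2.11 against 23.5 ± 2.40 FPKM and Gstt1 at 16.5 ± 2.81 against 24.1 ± 7.60 FPKM (knock-out against wild-type). The groups overlapped in Gstt2 and Gstt1. In the kappa gene Gstk1, a mitochondrial and peroxisomal enzyme, the values were 78.3, 83.3 and 70.1 FPKM in the knock-out and 40.1, 82.8 and 31.7 FPKM in wild-type libraries. The alpha genes Gsta1 and Gsta4, the last of which clears the lipid peroxidation product hydroxynonenal, averaged 67.3 ± 4.47 and 60.1 ± 9.26 FPKM in the knock-out and 59.7 ± 11.9 and 49.6 ± 16.7 FPKM in wild-type colon. Gsta3 had the opposite sign, at 5.30 ± 0.59 against 8.44 ± 2.64 FPKM. Without wild-type replicate 2, Gstk1 (1.09, adjusted p = 0.00425) and Gsta4 (0.57, adjusted p = 0.035) passed as higher in limma. Gstp2 (-0.82, adjusted p = 0.0146), Gstt3 (-0.38, adjusted p = 0.0268), Gstt1 (-0.75, adjusted p = 0.0244) and Gsta3 (-0.80, adjusted p = 0.00827) passed as lower.

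**Figure D5:**
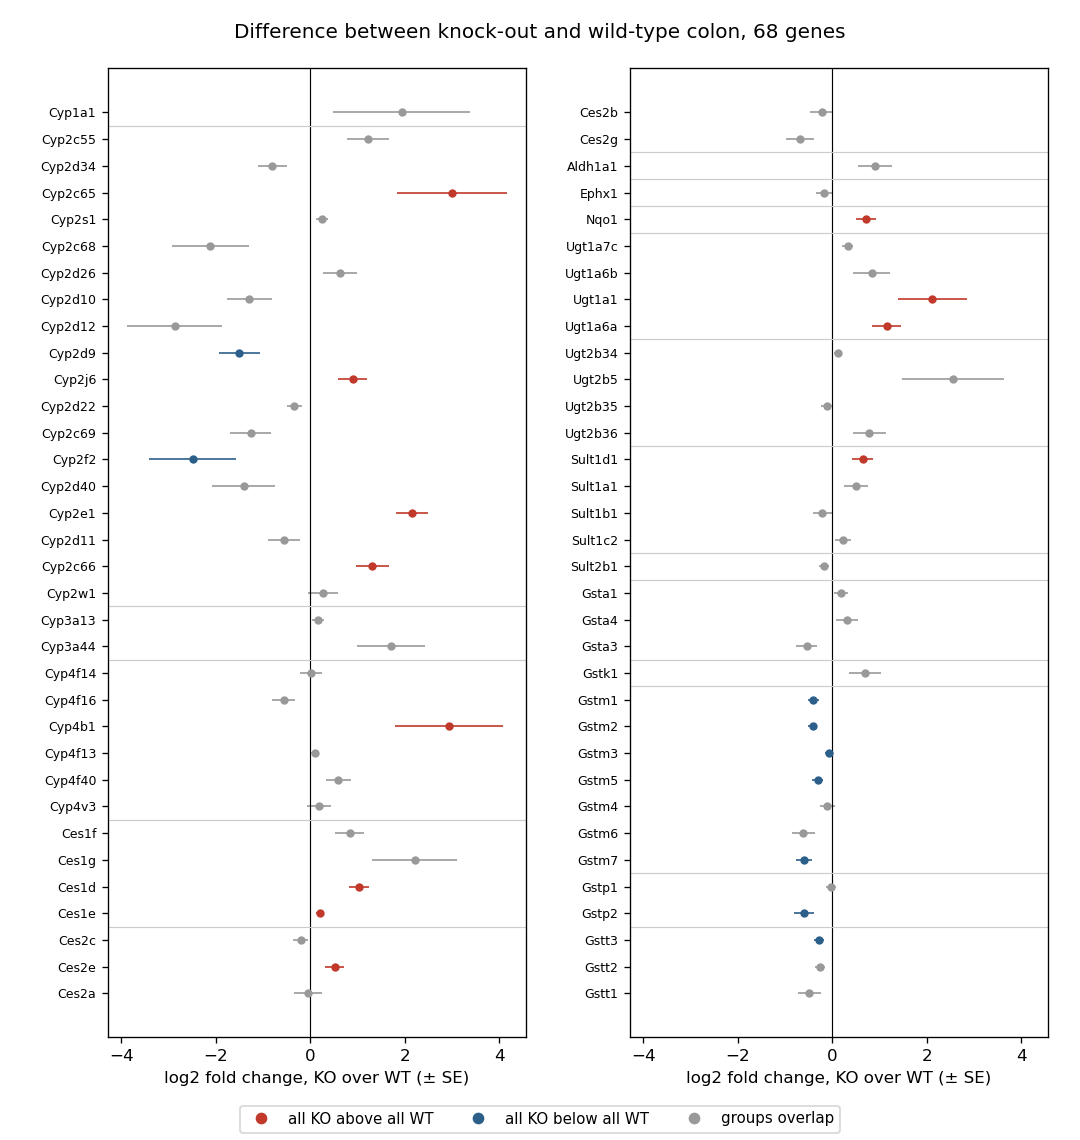
Points give the log2 fold change of knock-out over wild-type colon on the log2(FPKM + 1) scale with its SE for each of the 68 genes, fitted over 6 libraries; red and blue mark genes in which all knock-out libraries lie above or below all wild-type ones. Positive and negative values stand side by side within Cyp2, while all 7 mu-class glutathione transferase genes lie below 0 and all 4 Ugt1 and 4 Ces1 genes above it.

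The 19 enzymes outside the naming rule, averaging 1.34 to 59.8 FPKM, had 9 log2 fold changes above 0 and 10 below, between -2.49 (Cyp2f2) and 0.78 (Ugt2b36).

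When a score of HOX position (the mean log2 of 3 proximal minus that of 5 distal HOX genes) was added to the fit, 4 of the 68 enzymes kept an unadjusted p under 0.05 on the higher side (1.33% of all genes) and 1 on the lower (2.42% of all genes). These were Cyp2e1 (1.596 on the log2 scale), Ces1d (0.63), Cyp2c66 (0.62) and Ugt1a6a (0.54), and Gstm2 (-0.29). Cyp2e1 and Cyp2c66 had reached the minimum of 1 FPKM through the knock-out mean only. No gene passed after adjustment, and the difference between genotypes in this fit rests largely on wild-type replicate 2. The score was 2.68, 1.28 and 1.78 in knock-out libraries, against -2.43, 1.88 and -4.42 in wild-type libraries. Cyp2c65, Cyp4b1, Ces1g and Ugt2b5 stood between 0.02 and 0.27 in that fit, Ugt1a1 at 0.42 (unadjusted p = 0.0578, limma) and Cyp2d12 at -0.60 (unadjusted p = 0.233).

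The partners of these enzymes were taken from lists drawn up with earlier results of these data known, and 0 genes of any list passed over all genes in limma. Beside each count of partners at an unadjusted p under 0.05 stand the shares of all genes, 6.02% higher and 6.48% lower, and counts without wild-type replicate 2 are of genes that passed after adjustment, beside 9.21% and 7.19% of all genes. Por, the reductase that supplies electrons to all microsomal cytochromes P450, stood at 93.3, 91.4 and 83.4 FPKM in the knock-out and 50.7, 80.3 and 49.7 FPKM in wild-type libraries, without overlap (log2 fold change 0.59 ± 0.19; adjusted p = 0.0031 without wild-type replicate 2, limma). Of the 7 electron partners, Por was the 1 member with an unadjusted p under 0.05 on the higher side and Fdxr, a mitochondrial reductase, the 1 on the lower (6.02% and 6.48% of all genes), and the list also had 1 and 1 without wild-type replicate 2. Cyb5a and Cyb5b, the microsomal and mitochondrial cytochromes b5, had log2 fold changes of -0.03 and -0.02. For the cosubstrates, Ugdh, which makes the glucuronic acid donor, stood at 419 against 382 FPKM, and Papss2, which makes PAPS, at 225 against 157 FPKM (means of knock-out and wild-type). The related synthase Papss1 had the opposite sign (-0.44), as had the sulfate transporter Slc26a2, at 82.2, 106 and 85.6 FPKM in the knock-out and 218, 63.9 and 256 FPKM in wild-type libraries. Slc35b1, an endoplasmic reticulum nucleotide transporter gene, had a log2 fold change of -0.30. Among 13 cosubstrate genes tested, 1 was higher and 2 were lower at an unadjusted p under 0.05 (6.02% and 6.48% of all genes), and 2 and 3 passed without wild-type replicate 2, Slc26a2 among them (-1.37, adjusted p = 0.00285, limma).

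Of 17 sensors of foreign compounds and their partners that were tested, 5 were higher and 1 was lower at an unadjusted p under 0.05 (6.02% and 6.48% of all genes), and 5 and 1 passed without wild-type replicate 2. Nfe2l2, which encodes NRF2, stood at 127, 139 and 122 FPKM in the knock-out and 80.1, 112 and 77.8 FPKM in wild-type libraries, without overlap (log2 fold change 0.54 ± 0.15; adjusted p = 0.00502 without wild-type replicate 2, limma). The glucocorticoid receptor gene Nr3c1 (0.65) and the bile acid receptor gene Nr1h4 (0.69) had the same sign, while Hnf4a, the epithelial regulator with the highest level of the list, stood at 0.08. Nr1i2, which encodes the drug sensor PXR and was picked with its values in view, was even at 41.3, 38.2 and 44.1 FPKM against 42.7, 43.2 and 43.1 FPKM. Nr1i3, which encodes the related sensor CAR and was also picked with its values in view, stood at 1.06, 1.6 and 1.69 FPKM in the knock-out and 8.28, 1.30 and 10.3 FPKM in wild-type libraries (-2.07 without wild-type replicate 2, adjusted p = 0.00177, limma). Wild-type replicates 1 and 3 were the high libraries for Nr1i3, as they were for Cyp2d12, Cyp2c68 and 21.7% of all genes tested. The part of CAR in these values was not tested. Of 19 other NRF2 targets, 0 were higher and 2 were lower at an unadjusted p under 0.05 (6.02% and 6.48% of all genes), and 3 and 4 passed without wild-type replicate 2. The 3 were Taldo1, Tkt and Me1 of sugar and malate metabolism, picked with their values in view (0.79, 0.80 and 2.07). The 2 that were lower over 6 libraries were the ferritin gene Ftl1 (-0.46) and the exporter gene Abcc1 (-0.51). Ftl1 was among the 3 targets with the highest levels, and the other two, Fth1 and Prdx1, had log2 fold changes of 0.15 and -0.13.

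Export pumps and further enzymes completed the lists. Among 17 drug transporters tested, 2 were higher and 1 was lower at an unadjusted p under 0.05 (6.02% and 6.48% of all genes), and 7 and 3 of 16 passed without wild-type replicate 2. Abcc3, which exports glucuronides, stood at 105, 124 and 113 FPKM in the knock-out and 86.7, 97.3 and 75.8 FPKM in wild-type libraries, without overlap, and Abcb1a, the P-glycoprotein gene, at 193 against 166 FPKM with overlap. Slc22a18, an organic cation transporter gene, had a log2 fold change of 0.53. Of 38 further genes of oxidation and hydrolysis, 9 were higher and 5 were lower at that level (6.02% and 6.48% of all genes), and 9 and 10 of 39 passed without wild-type replicate 2. Adh1, the class I alcohol dehydrogenase, had the highest mean of them and stood at 90.6, 115 and 135 FPKM in the knock-out and 673, 119 and 1149 FPKM in wild-type libraries. Wild-type replicates 1 and 3 were its high libraries, as for Cyp2d12 and 21.7% of all genes tested. The log2 fold change of Adh1 was -2.96 without wild-type replicate 2 (adjusted p = 0.00205, limma). Pon3 and Xdh, a lactonase and a purine oxidase, had the lowest p of that list, with log2 fold changes of 0.33 and 0.55, and Akr1a1 and Cbr1, both carbonyl reductases, had 0.09 and -0.07. Of 14 further conjugating or glutathione-using enzymes, 0 were higher and 2 were lower (6.02% and 6.48% of all genes; 1 and 2 passed without wild-type replicate 2), the peroxidase Gpx2 (-0.66) and the acyl-CoA synthetase Acsm3 (-0.69), while Mgst3, Gsto1 and Mgst1 lay between -0.02 and 0.10. Of 5 other cytochromes tested, Ptgis, the prostacyclin synthase, was higher (0.45) and Cyp20a1 was lower (-0.32) at that level, with 0 passing without wild-type replicate 2, and the sterol demethylase Cyp51 and Cyp27a1 stood at 0.00 and -0.78.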

How the data were processed

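Per the file headers, the authors deposited FPKM for each mouse gene and library, and the values have 2 decimals. HISAT, Bowtie2, HTSeq and edgeR are listed in the submitters' processing notes with neither versions nor roles, and no mouse build is given in the sources used here, so no positions or sequences are printed. FPKM keeps no read depth, and the rounding leaves low genes coarse, so no counting interval is given. No per-sample column of the mouse table was left unmatched, and replicates were compared before averaging: at most 0.642% of tested genes had equal values in any pair of libraries.

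Values were taken as log2(FPKM + 1), which understates changes of low genes. Genes with a mean of at least 1 FPKM were fitted with R 4.3.3 and limma 3.58.1, using a trend of variance with level, with Benjamini-Hochberg adjustment over all of them and a threshold of 0.05. The procedure was run on simulated data in which all genes had the same spread and no wild-type library stood apart. That run therefore cannot tell how the split among wild-type libraries affects the calls. The p-values set the difference between genotypes against the spread among these libraries within a genotype. Whether the libraries come from separate litters is not stated, so that spread may not be the spread between litters.

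The members and lists were chosen with earlier results of these data known. Named genes are those the choice of families singled out, the 3 most abundant of each family, the 8 with the lowest p in each direction, and for partner lists the 3 most abundant and the 2 with the lowest p. Enzymes and partners outside this rule are marked as picked with their values in view, and single cell type markers were picked in the same way. The alternatives were other pseudocounts, minimum means and scalings, robust variances, a replicate block, a HOX position covariate and leaving out single libraries.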

Additional observations from a re-analysis of the deposited data

How the results depend on the processing

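Leaving out 1 library gave between 0 and 1861 called genes and between 0 and 42 called enzymes, both upper values without wild-type replicate 2. Zfp280c ranged from -1.75 to -1.57 and passed without that library only (adjusted p = 0.00205, limma). With pseudocounts of 0.1 or 0.5, minimum means of 0.1 or 5, the 3 rescalings, robust variances, the replicate block or the position covariate, 0 enzymes passed. Of 49 named enzymes, 16 of them named for a low p, 32 passed without wild-type replicate 2, where 9.21% of all genes passed as higher and 7.19% as lower. Signs turned for Ces2a (-0.27 to 0.30), Cyp4f14 (-0.18 to 0.23) and Gstp1 (-0.10 to 0.026) when 1 library was left out, and for Gstp1 under quantile normalization (0.054). With the position covariate signs turned for Ces2c (0.088), Ces2a (0.13), Cyp4f14 (-0.026), Gsta1 (-0.063), Gsta4 (-0.18), Gstk1 (-0.048), Sult1a1 (-0.064), Sult1b1 (0.14) and Ugt1a6b (-0.067); the cause was not tested. Deviations from the group mean in same-numbered libraries had correlations of -0.45, -0.14 and 0.15. These cannot decide whether the replicate numbers pair libraries, since wild-type deviations mostly set replicate 2 against replicate 3 (correlation -0.89). The labels name no pairing. With the replicate block 0 genes were called, as without it. Read depth is unknown, and values near the rounding step of 0.01 FPKM carry the least precision.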
